A study of Drosophila melanogaster with 3 samples.

Results

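Binding of D (Dichaete) was mapped here in the introns of long genes. The regions are the peak summits that lay in an intron of a protein-coding gene over 50 kb in length, more than 500 bp from every protein-coding start site and in no exon of a protein-coding transcript. Where several genes covered a summit, the longest of them was taken as its host gene. In the values and counts below, long introns means introns of genes over 50 kb, whatever the length of the intron. There were 671 such summits among the 5047 summits of the authors' list thresholded on the irreproducible discovery rate (IDR), a share of 13.3% (exact Clopper-Pearson 95% interval 12.4 to 14.3). They occupied 669 peak intervals and 174 host genes. Within the IDR list, the rule used position only and no binding value. The list itself was thresholded on peaks of these same replicates.

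ChIP-seq, in which DNA bound by a protein is precipitated and sequenced, was done on Drosophila melanogaster embryos of both sexes, whole and aged 0 to 14 hours. The line stably carried D with green fluorescent protein (GFP) at its C-terminus, and the tagged protein was precipitated with an antibody against GFP. All 3 samples were biological replicates of this 1 group, with no second genotype, stage or treatment. Whether the untagged D gene was intact in the line, and whether the control carried the transgene, is not given in the sources used here. Because whole embryos of many stages were pooled, strong binding in few cells and weak binding in many cannot be told apart.

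D is a transcription factor of the SoxB class, which binds DNA through an HMG domain in the minor groove and bends it. Sox proteins recognise short A/T-rich sequences around the core ACAAT. D is known to act together with the POU factor Vvl in the midline. It acts in segmentation, in the neuroectoderm and in the hindgut, and it overlaps in function with SoxN in neural precursors. Long introns of Drosophila genes are a common place for enhancers of developmental regulators and of neuronal genes.

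The sequences below are 151 bp windows centred on summits of high signal, chosen because they show the range of Sox core content at the strongest sites. They were taken from RefSeq Release 6, the dm6 build of the peak lists, and the capitals mark ACAAT read on either strand.
ush, chr2L:480996-481146, plus strand: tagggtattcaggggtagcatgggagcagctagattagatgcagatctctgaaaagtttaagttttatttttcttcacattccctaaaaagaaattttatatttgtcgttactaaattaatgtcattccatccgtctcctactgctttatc
Tlk, chrX:3742147-3742297, plus strand: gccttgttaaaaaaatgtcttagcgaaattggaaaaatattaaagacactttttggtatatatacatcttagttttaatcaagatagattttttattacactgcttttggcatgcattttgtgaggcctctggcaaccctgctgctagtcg
fz, chr3L:14303991-14304141, plus strand: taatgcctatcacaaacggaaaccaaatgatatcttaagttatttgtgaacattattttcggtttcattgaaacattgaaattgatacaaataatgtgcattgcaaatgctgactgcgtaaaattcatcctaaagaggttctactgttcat
Hr4, chrX:1947675-1947825, plus strand: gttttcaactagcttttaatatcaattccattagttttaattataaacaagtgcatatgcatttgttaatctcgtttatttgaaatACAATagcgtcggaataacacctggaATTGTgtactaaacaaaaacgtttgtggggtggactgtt
CG1677, chrX:7307114-7307264, plus strand: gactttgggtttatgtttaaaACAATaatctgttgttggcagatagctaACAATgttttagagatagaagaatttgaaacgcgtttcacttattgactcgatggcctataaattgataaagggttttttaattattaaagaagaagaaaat
The windows of ush, Tlk and fz had no copy of the core, while those of Hr4 and CG1677 had 2 each. The related HMG-box word ACAAAG was in none of these windows.

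The strongest binding in a long intron lay in ush, which encodes a zinc finger cofactor of GATA factors. Its peak had a pooled signal of 4125, the authors' own measure of peak height, and was the 3rd highest of all 5047. In the separate lists of replicates 1, 2 and 3 the same site had signals of 957, 1406 and 1701 and ranks of 4, 4 and 3. Signal is comparable within a list only, so ranks are given across the replicate lists, which hold 30000 regions each.

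The next host was Tlk, which encodes a Tousled-like kinase. Its summit had a pooled signal of 2247 and signals of 472, 833.5 and 928 in replicates 1, 2 and 3, which ranked 45, 26 and 26. The summit of sbb, a transcriptional corepressor gene, had a pooled signal of 2142 and replicate signals of 250.4, 828 and 1065, which ranked 224, 28 and 13. It was thus far lower in the list of replicate 1 than in the other lists. A second sbb summit, at 1802, had signals of 339, 679.7 and 749 and ranked 132, 54 and 57. Hr4, a nuclear receptor gene, followed with 1618, replicate signals of 323.5, 618 and 646 and ranks of 143, 77 and 91. Of the 20 strongest summits, 11 stood further down the list of replicate 1 than the lists of replicates 2 and 3.

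Several of the strongest summits were closer to the start of another gene than to that of the host. The summit in ush lay 1383 bp from the start site of cbt and 4851 bp from the nearest start of ush. A summit of 1605 within CG33158 had as its nearest start site that of aos, which encodes the inhibitor Argos of the epidermal growth factor receptor. In CG1677, the summits at 1439, 1430 and 1101 were nearest to brk, Dok and unc-119. The gene brk encodes a repressor in the Dpp pathway. The brk summit lay 750 bp from the start site of brk and 20994 bp from the nearest start of CG1677. That summit had signals of 429.8, 479.5 and 525 in replicates 1, 2 and 3 and ranked 64, 161 and 165, so here replicate 1 gave it the highest place. The other summits among the 20 strongest were another in sbb (1432), another in Hr4 (1259) and 1 each in fz (1449), shn (1432), kirre (1384), mub (1338), rdx (1201), Smr (1146), mbl (1055), beat-Ib (995) and Dys (976).

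All of the 20 strongest were recovered in every replicate. A summit was counted as recovered in a replicate when that replicate's own list had, among its 5047 summits of highest signal, one no more than 200 bp away. The next in order, in sima, at 969, had no region within 200 bp in the list of replicate 1, while it ranked 271 in replicate 2 and 317 in replicate 3. Of the 20 windows, 10 held the Sox core within 100 bp.

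**Figure D1:**
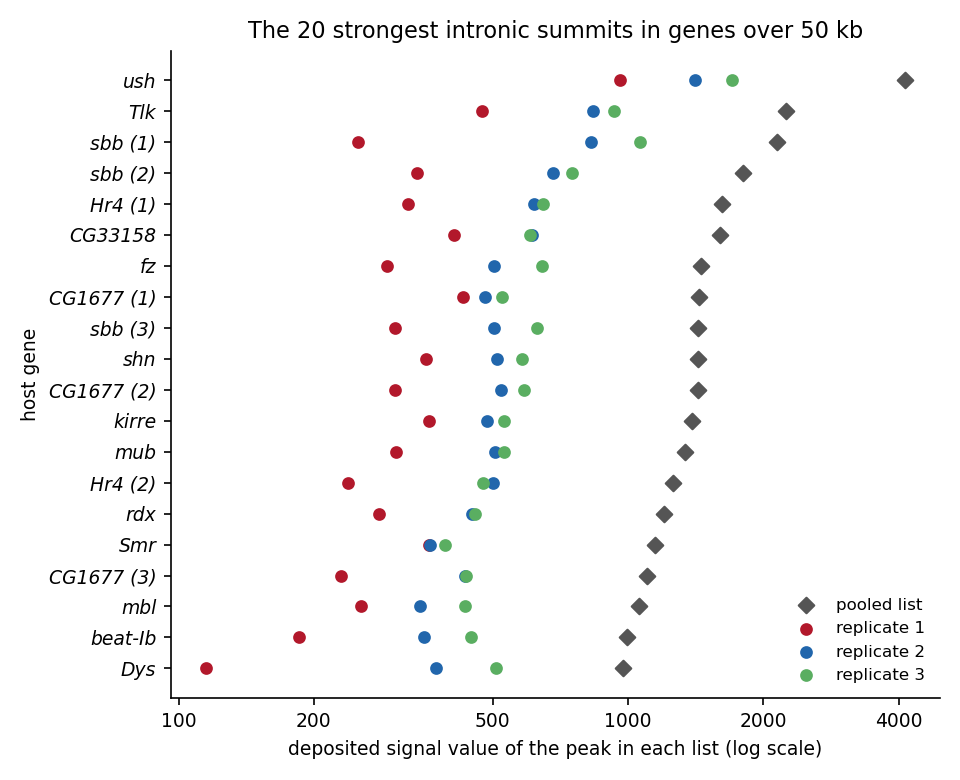
Deposited signal (horizontal, log scale) of the 20 strongest intronic summits in genes over 50 kb, in the pooled list (diamonds) and in the list of each replicate (circles), with the host gene on the vertical axis. Pooled signals ran from 976 in Dys to 4125 in ush, and replicate 1 had the lowest signal at each site, on a scale that is its own.

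Pooled signals of the 671 summits ran from 188 to 4125, with a median of 291 and quartiles of 226 and 427. The median over the whole IDR list was 310. By quartile of the whole list, from the highest signal down, the long introns held 134, 169, 181 and 187 summits. Signal above the median of the list was found for 45.2% of them (41.4 to 49.0), against 50.6% of the 1399 intronic summits in genes to 50 kb. The difference was -5.45 percentage points, with a Newcombe 95% interval whose upper end was -0.851. Its adjusted p was 0.0374 by Fisher's exact test, two-sided, with Benjamini-Hochberg adjustment over 7 features. It did not pass at other length limits (adjusted p = 0.138 at 30000 bp and 0.137 at 100000 bp, Fisher's exact tests). Against the 563 distal intergenic summits, over 5 kb from every start site, 45.2% stood beside 42.1% (adjusted p = 0.525, Fisher's exact test). All of these tests count regions, so their p-values do not measure the spread between replicates, and neighbouring summits of 1 locus are not independent.

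The 174 hosts were 56.7% of the 307 protein-coding genes over 50 kb. Of these, 7 genes had no sequence that the rule could assign to them and so could hold no summit, which leaves 174 of 300 (58%). Exactly 1 summit was found in 45 of them and at least 5 in 57. The 14 hosts with 10 or more held 171 summits, 25.5% of the total. The 3 hosts just over the length limit were ab with 1 summit, ftz-f1 with 5 and caps with 1. Just under it were cdi with 2, Dyrk2 with 1 and NetA with 5, which count as introns of shorter genes.

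The gene with most summits was kirre, which encodes an immunoglobulin-family adhesion protein of myoblast fusion and is 394149 bp long. Of its 19 summits, 16, 16 and 14 were recovered in replicates 1, 2 and 3, and 9 were nearest to the start of a gene nested in kirre. CG1677 held 15, recovered 11, 14 and 13 times, and all 15 were nearest to a nested gene. Among the summits of kirre and CG1677, 10 and 9 were recovered in all replicates.

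The next 4 hosts were all in the list of transcription factors described further on. The corepressor gene sbb held 14 summits, recovered 10, 14 and 13 times in replicates 1, 2 and 3. All 14 were in a first intron. The gene px held 13, recovered 8, 12 and 11 times. The zinc finger gene jing, which acts in the midline and trachea, also held 13, but only 3 of them were recovered in replicate 1, against 12 and 13 in the others. The gene of the zinc finger protein Schnurri, shn, held 12, recovered 8, 11 and 8 times, and 11 of the 12 had a Sox core. Its density of 20.6 summits per 100 kb of gene was the highest among hosts with 3 or more.

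Other hosts of this rank had mixed functions. CG43658 held 12 summits, none above a signal of 393, recovered 9, 10 and 11 times. Tlk held 11, of which 5, 11 and 10 were recovered. The Wnt receptor gene fz also held 11, with 9 in each replicate, and 6 of them were nearest to a nested gene. The gene rdx, for an adaptor that targets Ci for degradation, held 11, of which 5, 10 and 10 were recovered.

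The hosts with 9 or 10 summits were the teneurin gene Ten-a, sick, the homeobox gene hth, the ETS factor gene pnt, ush and the nuclear receptor gene Eip75B. In ush 4 of 9 summits were recovered in replicate 1 and 9 of 9 in each of the others. In hth the counts were 7, 10 and 10 of 10. The receptor gene of Dpp, tkv, had 6 summits, of which none was recovered in replicate 1 and 5 in each of the others. In beat-Ib, of the Beaten path family, all 5 were recovered in every replicate. Some hosts had fewer recovered in another replicate than in replicate 1. In shep the counts were 6, 3 and 3 of 6, and in Ptp10D 5, 2 and 5 of 5. Over all 671 summits the shares were 66.0%, 84.2% and 84.4%. Each of these hosts holds few summits, so no difference between hosts is drawn from them.

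Summits were often close together within a host. When summits of long introns within 5 kb of the previous one were chained, the 671 formed 436 runs, of which 301 were single and 52 had 3 or more. The longest run was in sbb, with 11 summits over 14101 bp. It was followed by shn with 8 over 12319 bp, pnt with 7 over 9311 bp, and Tlk, rdx and ush with 6 each. Another IDR summit within 5 kb was found for 59.6% of the summits (55.8 to 63.4) and for 65.2% in genes to 50 kb (adjusted p = 0.0346, Fisher's exact test). That difference turned to the other sign when replicate 2 or replicate 3 was left out (2.87 and 2.12 percentage points).

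In all, 5 lists of genes by function were counted among the genes over 50 kb, without a set test, and each is read against the 56.7% of all such genes. The lists are partial and leave out relatives of their members, such as the nuclear receptor gene Hr4 with 8 summits and nAChRalpha3 with none. Of 32 genes in the list of transcription factors, 26 had at least 1 summit (81.2%), with a median of 3.5 summits a gene against 1 over all genes. They included the Hox genes Antp with 7 summits and Ubx with 1, the ecdysone receptor gene EcR with 4, and pros, a neural fate gene, with 3. Members of the list include cofactor genes such as sbb and ush. It also holds rdx, whose product is not a transcription factor, so the share is not of such factors alone. The 6 members with none were Eip93F, br, bru1, chinmo, fru and pdm3. Of these, bru1 encodes an RNA-binding protein. The 0 of br was set by the rule, since br lies within the longer gene Mur2B and has no eligible sequence of its own. Without it the list stood at 26 of 31 (83.9%), beside the 58% of all genes with eligible sequence.

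Of 7 genes in the signalling list, 6 had a summit: fz with 11, tkv with 6, the RhoGAP gene cv-c with 5, the second Wnt receptor gene fz2 with 5, the glypican gene dally with 4 and RhoGEF64C with 1. Gprk2 had none. Of 15 cytoskeletal and junction genes, 9 had one (60%, or 64.3% of the 14 genes other than Ank2, which had no eligible sequence), led by sick with 10, pyd, a ZO-1 protein gene of junctions, with 7, and the dystrophin gene Dys with 6. The nesprin gene Msp300 had 2, the higher at 753.

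Of 26 listed genes of recognition and axon guidance, 15 had a summit (57.7%), a share close to that of all genes. Relatives over 50 kb that the list leaves out included beat-Ib with 5 summits. Others, with none, were dpr11, dpr12, dpr21, side-II, side-III, side-VI, side-VIII, beat-VI and DIP-lambda. The share therefore does not stand for these families. Within the list, after kirre and Ten-a came Sema1a with 6 and Fas3 and Ptp10D with 5 each. The immunoglobulin gene DIP-alpha had 2, the higher at 823. Genes with none included Dscam1, Fas2, Lar and sns, the partner of kirre in myoblast fusion. Ion channel and synapse genes were lowest, with 7 of 19 (36.8%). These were SKIP with 8 summits, the splicing regulator gene Rbfox1 with 4, the phosphodiesterase gene dnc with 2, and Elk, bru3, Ca-alpha1T and SK with 1 each. As Rbfox1 shows, the list is not of channel and synaptic proteins alone. The 12 without one included para, cac, Sh and eag, which encode channel subunits of neurons. The Elk summit, at 431, had a region in replicate 1 only, with a signal of 128. With recovery in all replicates required, 62.5% of the transcription factor genes and 15.8% of the channel and synapse genes still had a summit, against 43.6% of all genes over 50 kb.

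**Figure D2:**
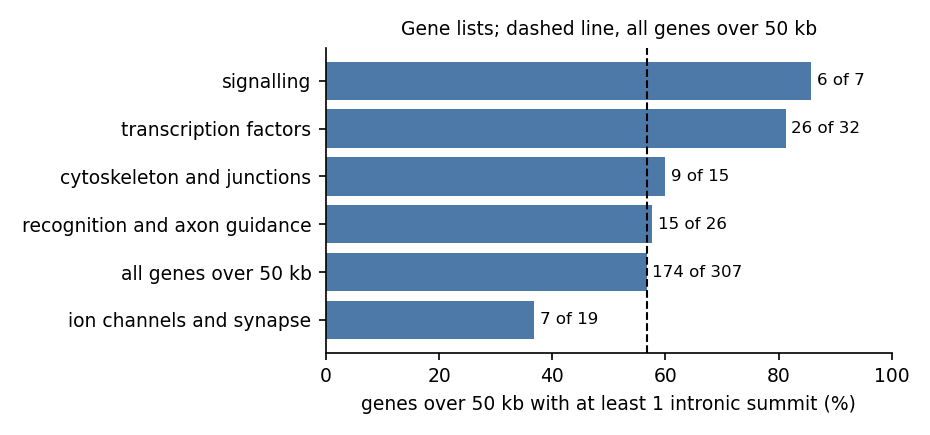
Share of genes over 50 kb in each list that had at least 1 intronic IDR summit (bars, with counts), beside the share of all genes over 50 kb (dashed line, 56.7%). Transcription factor genes stood at 26 of 32 and ion channel and synapse genes at 7 of 19.

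Relative to the sequence that meets the rule, summits were sparser here than in shorter genes. Every known base that meets the rule was counted, and whether reads can be placed there was not assessed. Intron sequence that meets the rule came to 25.1 Mb and held 26.7 summits per Mb. Genes to 50 kb held 50.95 per Mb over 27.5 Mb, and distal intergenic sequence 21.8 per Mb over 25.8 Mb. Taken from the 5047 highest summits of each replicate's own list, the density in long introns was 39.6, 25.2 and 25.9 per Mb in replicates 1, 2 and 3 (30.2 ± 8.11, SD, n = 3). In genes to 50 kb it was 43.6, 49.8 and 50.95 (48.1 ± 3.94, SD, n = 3). The 2 ranges did not overlap, but the gap was small in replicate 1.

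A few very long genes weigh on these densities. The 5 longest genes with no summit, Myo81F, Pzl, lovit, CG17684 and DIP-lambda, hold 3.85 Mb of the eligible sequence, Myo81F alone being 1965857 bp long. Within them the 5047 highest regions of replicate 1 included 33, and those of replicates 2 and 3 none. Without these genes, a choice made after seeing the data, the density rose from 26.7 to 31.5 per Mb. Other very long genes with no summit stayed in, such as Snap25 (225026 bp) and l(3)80Fg (215672 bp). By gene length the density was 38.4 per Mb at 50 to 75 kb, 33.1 at 75 to 100 kb, 25.6 at 100 to 150 kb and 10.3 above 150 kb. The last value became 24.0 without the 5 longest genes with no summit. The share of genes with a summit did not follow length in the same way, being 54.2%, 58.0%, 62.3% and 54.5% in the same order.

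Relative to the eligible sequence of all genes over 50 kb, summits were denser toward the 5' end. When each gene over 50 kb was divided into 5 equal sections from its 5' end, these held 188, 151, 118, 133 and 81 summits. Per Mb of eligible sequence this was 36.6, 28.1, 22.1, 25.4 and 20.05. That sequence includes genes with no summit, so these are not densities within the hosts alone. The section at the 5' end was also the densest without the 5 longest genes, at 43.0 per Mb against 24.7 in the last. A first intron of at least 1 host transcript held 346 summits, 51.6% (47.7 to 55.4). Of the eligible bases of all genes over 50 kb, with or without a summit, 32.5% lay in a first intron (36.3% without those 5 genes). The introns themselves were mostly long, with a median of 26426 bp, but the shortest was 516 bp. An intron over 10 kb held 83.6% of the summits. The median distance to the nearest start of the host was 9712 bp, and the largest 101265 bp.

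**Figure D3:**
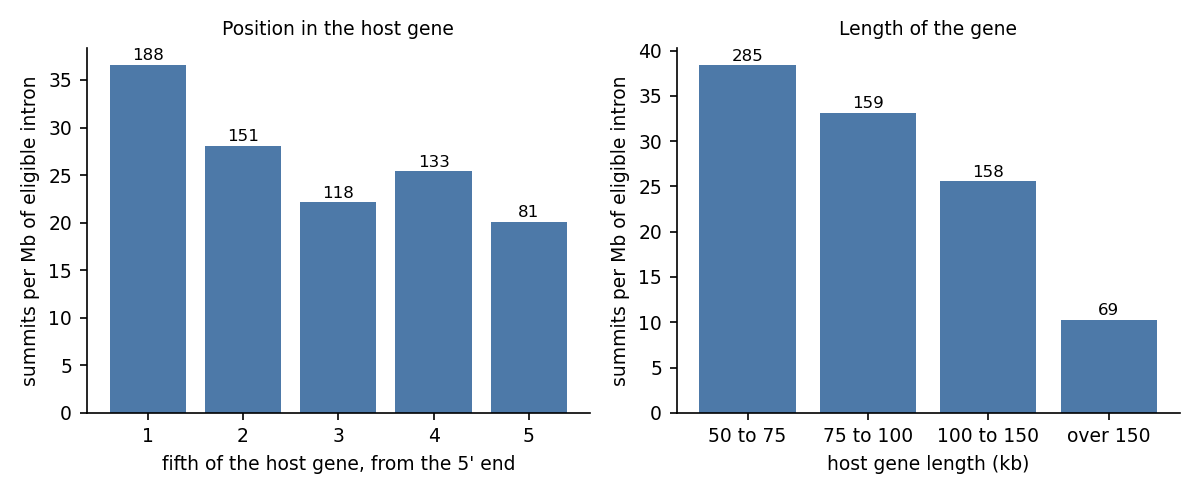
Summits per Mb of eligible intron sequence by section of the gene, 5 equal sections from its 5' end (left) and by gene length (right), with the number of summits above each bar. Eligible sequence is that of all genes over 50 kb, with or without a summit. Density fell from 36.6 per Mb in the section at the 5' end to 20.05 in the last, and from 38.4 per Mb at 50 to 75 kb to 10.3 above 150 kb.

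The host is not always the gene nearest by. For 191 summits, 28.5%, the closest start site was that of another gene, and for 143 of them that gene lay wholly inside the host. A second protein-coding gene also covered 29 summits, and 47 lay in a non-coding RNA gene. Within 500 bp of a non-coding RNA start were 14. More than 5 kb from every protein-coding start lay 376, or 56.0%. Proximity does not show which gene a site acts on.

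The arms differed in recovery by replicate 1. The X had 168 summits in long introns, of which 78.0% were recovered in replicate 1, 84.5% in replicate 2 and 81.0% in replicate 3. On 2R the 119 summits had 53.8%, 85.7% and 84.9%. The other arms lay between for replicate 1, at 69.0% on 2L, 60.7% on 3L and 63.9% on 3R, and chromosome 4 had no summit in a long intron. Per Mb of eligible sequence, the arms X, 2L, 2R, 3L and 3R held 32.8, 35.9, 27.7, 23.3 and 19.4, and without the 5 longest genes 32.8, 35.9, 33.7, 25.35 and 31.8.

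Recovery by the replicates differed between introns of genes over 50 kb and introns of genes to 50 kb in 1 library. The IDR list was itself made from these 3 replicates, so recovery in them is no independent support for a peak. The tests of recovery compare classes of peaks that the same libraries chose. In all 3 replicates 341 summits were recovered, 50.8% (47.0 to 54.7), against 38.5% of the whole IDR list. Replicates 1, 2 and 3 recovered 443, 565 and 566 summits, or 66.0%, 84.2% and 84.4% (78.2 ± 10.5%, SD, n = 3). Recovery in replicates 2 and 3 alone was the pattern of 158 summits, while 33 were recovered by replicate 1 alone and 6 by none. Where a summit had a region of its own in a pair of replicate lists, Spearman's rho across summits was 0.679 for replicates 1 and 2, 0.606 for 1 and 3 and 0.770 for 2 and 3. These are descriptions over 509, 508 and 663 regions, which share the libraries.

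In introns of genes to 50 kb, 35.5% were recovered in all replicates, 15.4 percentage points fewer (Newcombe 95% interval 10.8 to 19.9, adjusted p = 1.26e-10, Fisher's exact test). Replicate 1 recovered 66.0% in genes over 50 kb and 45.7% in genes to 50 kb (adjusted p = 2.62e-17, Fisher's exact test). Replicate 2 had 84.2% and 85.0% (adjusted p = 0.741) and replicate 3 had 84.4% and 86.3% (adjusted p = 0.357, Fisher's exact tests). With replicate 1 left out, the difference in joint recovery was -1.97 percentage points (adjusted p = 0.455, Fisher's exact test), so the result rests on that library. Against distal intergenic summits, 51.2% of which were recovered in all replicates, the interval of the difference ran from -5.91 to 5.25 percentage points (adjusted p = 0.909, Fisher's exact test).

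Replicate 1 stood apart from the others in what its list holds. Long introns made up 19.7% of its 5047 highest regions, against 12.5% and 12.9% in replicates 2 and 3. Start sites made up 18.7% of them, against 37.5% and 36.6%, and the shares of 1 list sum to the whole. Down the whole lists, in bins of 5000 by signal, the share in long introns went from 19.7% to 23.9% in replicate 1, from 12.5% to 17.0% in replicate 2 and from 12.9% to 15.7% in replicate 3. In the pooled list it went from 13.3% to 18.8%. Of the 5028 pooled regions in long introns, 13.3% reached the IDR list, against 16.5% in shorter genes and 13.04% in distal intergenic sequence. Recovery moved with signal in every replicate. From the lowest to the highest quartile of the 671 it went from 47.0% to 85.7% in replicate 1, from 53.0% to 99.4% in replicate 2 and from 55.4% to 99.4% in replicate 3. The part of library depth or enrichment in these differences was not tested.

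**Figure D4:**
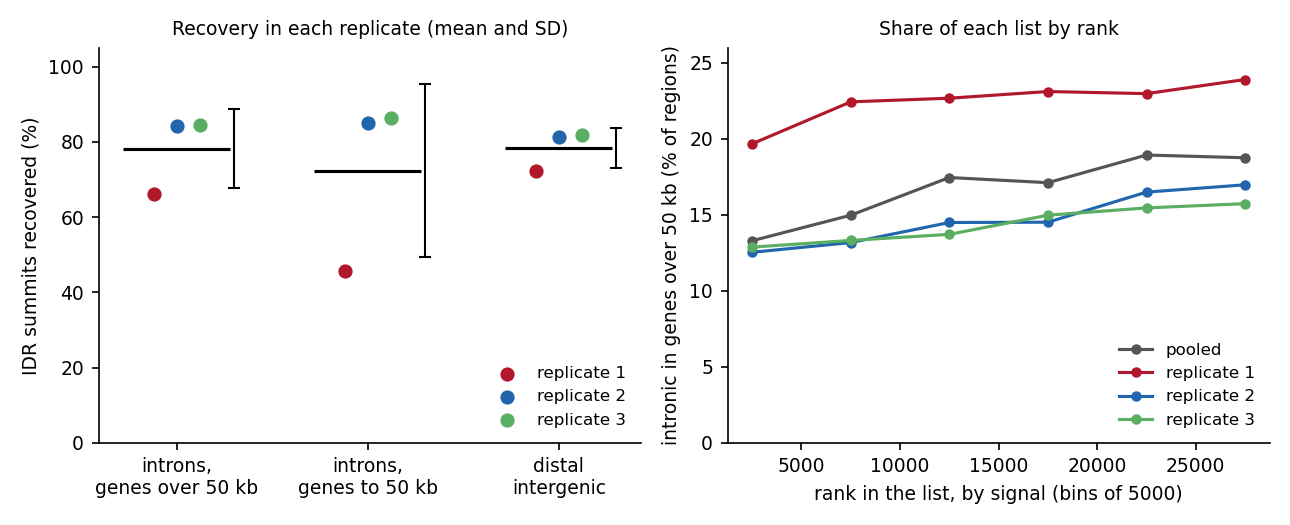
Left, share of IDR summits of 3 classes recovered in each replicate (circles), with mean (line) and SD (bar). Right, share of regions in introns of genes over 50 kb by rank within the pooled list and each replicate list. Replicates 2 and 3 recovered 81.2% to 86.3% in every class, replicate 1 recovered 45.7% to 72.3%, and the share in long introns was highest in replicate 1 at every rank.

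The Sox core was found within 100 bp of 355 summits, 52.9% (49.1 to 56.7), against 52.1% of the whole IDR list. Genes to 50 kb had 52.6% and distal intergenic summits also 52.6%. The difference from shorter genes had an interval of -4.30 to 4.87 percentage points (adjusted p = 0.925, Fisher's exact test over 11 motifs). Windows 1000 bp to the left and right of the same summits had it in 43.7% and 46.3%. This excess of 7.90 percentage points did not pass the exact McNemar test on the weaker of the 2 flanks (p = 0.0181, adjusted p = 0.1996), but did with flanks at 500 bp (10.4 percentage points, adjusted p = 0.00228) and at 2000 bp (9.61, adjusted p = 0.00696). At 1000 bp the excess was 8.11 percentage points in genes to 50 kb, with 1399 windows (adjusted p = 0.00112, exact McNemar test). At the 563 distal summits it was 8.26 (adjusted p = 0.0703, exact McNemar test). The size of the excess was thus not particular to long introns. Matches per 100 summits were highest between 40 bp before and the summit, at 16.7 in a bin of 40 bp, and were 11.9 at both ends of a span of 400 bp to each side.

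At least 2 copies of the core were in 18.6% of summit windows and in 14.7% of flank windows, and 19 summits had 3 or more. The shares with at least 2 were 17.4% and 14.65% in genes to 50 kb, and 17.6% and 14.03% at distal summits. From the lowest to the highest quartile by signal, the core was in 53.0%, 47.0%, 55.1% and 56.6% of windows. The other motifs counted were ACAAAG (HMG-box), ATGCAAA (part of the POU octamer), CAGGTAG (Zelda), GAGAG (the Trl protein), CACACA (a simple repeat), TAATTA (homeodomain), GATAAG (zinc finger factors such as Pannier), CAGCTG (an E-box of proneural factors), CACGTG (the E-box of other factors of that family) and GCCATTT (Pho), all on both strands. None of the 11 passed after adjustment against shorter genes, distal summits or flanks. At an unadjusted p under 0.05, 1 passed in each of these comparisons. GATAAG was in 8.64% of windows, in 11.9% in shorter genes and in 10.3% over the whole IDR list (p = 0.0283, adjusted p = 0.312, Fisher's exact test). ATGCAAA was in 8.05%, against 4.97% at distal summits and 7.81% over the whole list (p = 0.0384, adjusted p = 0.422, Fisher's exact tests). ACAAAG was in 18.3% of windows (16.3% over the whole list), GAGAG in 21.5% (23%), CACACA in 18.0% (17.4%) and TAATTA in 15.8% (18.0%). CAGCTG was in 6.26% (7.21%), GCCATTT in 3.87% (3.84%), CACGTG in 1.64% (2.16%) and CAGGTAG in 0.596% (0.892%). ACAAAG holds the first 4 letters of the Sox core, and the other words do not contain it.

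Summit windows were richer in A and T than their surroundings. The median GC content was 34.8% at the summit and 40.05% over the flanks, and 69.8% of the summits were below their own flanks. The share below their own flanks was 73.3% in genes to 50 kb, 70.5% at distal summits and 80.6% at start sites, so this was not particular to long introns. Summits recovered in replicate 1 had a median of 33.8%, and the others 37.8%. The same medians were 33.8% and 36.3% in genes to 50 kb, 33.8% and 40.8% at distal summits and 32.3% and 34.8% at start sites. The words that follow were chosen after their values were seen, were counted on both strands and carry no test. The 5 words of 6 letters with the largest excess over the flanks were all made of A and T, led by AAATAT in 53.7% of summit windows and 33.4% of flank windows. AAATAT was also in 50.4% of summit windows in genes to 50 kb, 54.7% at distal summits and 55.6% at start sites. Among the 228 summits that replicate 1 did not recover, the leading word was TAAACA, in 39.5% against 20.8% of flank windows, while it was in 26.2% and 22.1% among the 443 that it recovered. CAAACA was in 38.2% of windows not recovered in replicate 1 and in 19.2% of those recovered. In genes to 50 kb, TAAACA was in 32.1% and 25.9% of the same groups, and in distal sequence in 23.1% and 23.3%. CAAACA was in 29.4% and 24.7% in genes to 50 kb, and in 32.7% and 21.9% in distal sequence. Since these words were picked on the long introns, no contrast with the other classes is drawn from them.

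A longer word marked some of the summits on 1 side. Among words of 8 letters in at least 20 windows, the 10 with the largest ratio to the flanks included 6 that overlap as parts of 1 sequence around CACTGAGA, which was in 34 summit windows (5.07%) and on average in 3 flank windows. Of the 10 words, CACTGAGA was 4th by ratio and was in the most summit windows. Also among the 10 were ATGCACTG, CAGTGCAC and TCAGTGCA, the last 2 reading GTGCACTG and TGCACTGA on the other strand. These too hold CACTG, the start of the word, so they are not separate from it. The 34 lay in 30 hosts and had signals of 194 to 761. Replicates 1, 2 and 3 recovered 31, 28 and 25 of them, so here replicate 1 recovered most. In shorter genes the word was in 4.86% of windows, at distal summits in 7.46% and at start sites in 1.65%. The windows below, 61 bp each, are the 6 strongest of those on X, 2L, 3L and 3R that touch no exon, and not the strongest of all 34; windows of the other arms are not printed. They are read on the strand that carries the word, which stands in capitals. They show how far the letters around it are shared.
CG43759, chrX:19018173-19018233, plus strand: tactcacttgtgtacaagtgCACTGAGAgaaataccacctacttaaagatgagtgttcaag
pnt, chr3R:23326392-23326452, plus strand: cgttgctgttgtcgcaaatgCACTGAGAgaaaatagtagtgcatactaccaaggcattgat
Fas3, chr2L:18325202-18325262, plus strand: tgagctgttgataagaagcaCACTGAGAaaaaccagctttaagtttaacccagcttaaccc
ush, chr2L:520729-520789, plus strand: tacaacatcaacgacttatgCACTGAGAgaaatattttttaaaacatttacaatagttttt
cpo, chr3R:17941279-17941339, minus strand: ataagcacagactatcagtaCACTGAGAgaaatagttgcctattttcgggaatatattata
Pvf3, chr2L:7135295-7135355, minus strand: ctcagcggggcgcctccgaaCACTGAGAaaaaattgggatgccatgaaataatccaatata
The word lay 86.5, 83.5, 71.5, 65.5, 19.5 and 96.5 bp before the summit in these, in the order shown. Their pooled signals, in the same order, were 653, 618, 572, 522, 515 and 514, and each was recovered in every replicate.

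On its own strand, the word was nearly always 5' of the summit. Within 100 bp of the 671 summits there were 33 copies on the 5' side and 2 on the 3' side, and from there to 300 bp there were 24 and 3. The median distance of the copies on the near 5' side was 70.5 bp. The other 4376 IDR summits had 178 and 14 copies within 100 bp and 118 and 27 beyond, which is the same one-sided position outside long introns. Of the 4330 copies of the word on the 6 arms, 227 (5.24%) had their centre within 100 bp of an IDR summit. The Sox core was in 17 of the 34 windows. What places the summit on this side was not tested.

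**Figure D5:**
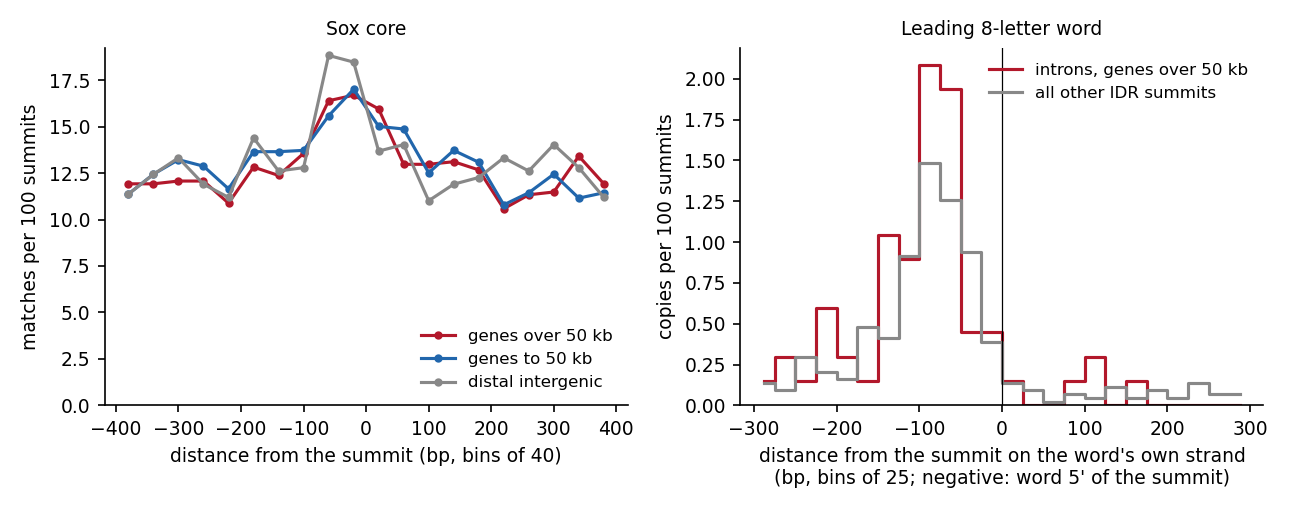
Left, matches to the Sox core per 100 summits by distance from the summit, for intronic summits in genes over and to 50 kb and distal intergenic summits. Right, copies of the 8-letter word CACTGAGA per 100 summits by distance on the word's own strand, for long introns and for all other IDR summits. The Sox core rose to 16.7 matches per 100 summits near the centre, and the word had 33 copies within 100 bp on the 5' side against 2 on the 3' side.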

How the data were processed

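ChIP-seq peak lists of 3 biological replicates were used on the dm6 build. By the authors' deposited file lists, every list of candidate regions came from an alignment compared with a control, either of 1 replicate or of all 3, and the IDR list was derived from those. Which aligner, peak caller and IDR cutoff were used is not given in the sources used here. In these lists, the deposited signal values (column 7), on a scale that is not stated, were used to rank and describe peaks within a list. The authors' −log10 q values were not used, nor were the dm3 lists, since no dm3 annotation was at hand. The lists hold no read counts, so depth could be neither given nor corrected for.

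Summits on 6 arms were placed on Ensembl release 115 genes, with sequence from RefSeq Release 6. Shares were compared by Fisher's exact test, summit and flank windows by the exact McNemar test, two-sided, with Benjamini-Hochberg adjustment and a threshold of 0.05. Differences carry Newcombe 95% intervals, which cover counting error only. Regions, the units of these tests, are not replicates. Members, gene lists, motifs and tests were chosen with earlier results of these data known. Named hosts are those of the 20 strongest summits, of most summits, of the highest density, of the 4 strongest summits in each list and the 5 longest genes without a summit; other genes were named after their values were seen. In the gene lists, 4 symbols did not match the annotation. The alternatives were other length and start-site limits, stricter peak sets, other windows, flanks and recovery distances, and each replicate left out. The window tests were tested on simulated data. Tests ran in scipy 1.17.1 under Python 3.11.15, with adjustment by statsmodels 0.14.6.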

Additional observations from a re-analysis of the deposited data

How the results depend on the processing

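The higher joint recovery in long introns than in introns of genes to 50 kb kept its direction and passed under every alternative to lengths, distances and lists (13.2 to 25.5 percentage points), and reversed with replicate 1 left out; over the replicates left out in turn it ran from -1.97 to 17.6. No list was remade without a replicate: leaving one out means keeping peaks recovered in both others. The share of IDR summits in long introns was 21.3% with genes over 30000 bp, 4.50% with genes over 100000 bp, 12.4% with 1000 bp to start sites, 12.01% in the upper 50% of peaks, 17.6% in peaks recovered in all replicates and 13.2% to 17.6% with a replicate left out. Host genes numbered 339 and 50 at the 2 length limits.

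The lower share of high signal lost its call with genes over 30000 bp (-3.88 percentage points), over 100000 bp (-6.37), at 1000 bp (-4.33), in peaks recovered in all replicates (-4.40) and without replicate 2 or replicate 3, but not without replicate 1; with a replicate left out it ran from -7.73 to -7.27. The lower share with a neighbour lost it with genes over 30000 bp (-4.33), over 100000 bp (-6.37), in the upper 50% (-7.57) and within 2000 bp (-1.82), was 3.01 in peaks recovered in all replicates and ran from -2.46 to 2.87 with a replicate left out. The differences in low GC and in the Sox core, not called in any setting, changed sign, low GC with genes over 30000 bp (-0.776) and windows of 50 and 150 bp (-1.10 and -1.13), the Sox core with genes over 100000 bp (-2.30), peaks recovered in all replicates (-3.12), a window of 150 bp (-1.73), GC of 30 to 40 percent (-0.122) and a replicate left out (-3.04 to 1.34). The Sox core against its flanks passed with flanks at 500 bp (10.4) and 2000 bp (9.61). GATAAG against shorter genes passed at 1 setting, genes over 30000 bp (-4.13, adjusted p = 0.0317, Fisher's exact test). The causes were not tested. Of the 33 named hosts, the number of summits moved by over 1.5 times in 24 in peaks recovered in all replicates and in 24 in the upper 50%. Those sets kept only 341 and 303 of the 671 summits, so many such moves follow from their smaller size. Without replicates 1, 2 and 3, which also keeps fewer summits, the number moved in 8, 22 and 18 hosts. In peaks recovered in all replicates, 2 hosts had none left. No pairing of samples between groups was possible because there is 1 group. Only summit windows and their own flanks were compared as pairs.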
